A study of Mus musculus with 8 samples.

Results

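The Gadd45 genes encode a small family of stress-response proteins, and their mRNAs were followed here through RNA immunoprecipitation (IP) from mouse embryonic stem (ES) cells. Members were all probes whose gene name on the array was Gadd45a, Gadd45b or Gadd45g. This gave 4 of 41174 probes, which stood for 3 of 27666 genes. Gadd45a had the probe A_51_P296608, Gadd45b had the probes A_51_P500984 and A_52_P1197913, and Gadd45g had the probe A_51_P315904.

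All samples came from Dazl-GFP, a re-derived transgenic mouse ES cell line. The labels leave unsaid if DAZL and GFP form a fusion protein, which promoter drives the transgene or how many clones the line holds. Every sample shared the same culture: γ-irradiated feeder fibroblasts of mouse embryos, 15% fetal bovine serum, leukemia inhibitory factor, the MEK inhibitor PD0325901 at 1 µM and the GSK3β inhibitor CHIR99021 at 3 µM, a pair known as 2i. The groups were 3 native RNA-IPs with an antibody against GFP, 2 native RNA-IPs with an antibody against PABP1, and 3 inputs of total RNA with no antibody. The study asked which RNAs are bound to DAZL, an RNA-binding protein of germ cells that attaches to mRNAs in their 3′ untranslated regions. PABP1 is the protein that coats the poly(A) tails of mRNAs. A control-antibody IP was not analysed here.

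GADD45 proteins have no known enzyme activity and work by binding others. They bind and activate the kinase MAP3K4 upstream of p38 and JNK, and they bind the replication clamp PCNA, the cell cycle inhibitor p21 and the complex of CDK1 with cyclin B1. They have also been linked to DNA repair and active DNA demethylation, the process in which TET enzymes and the glycosylase TDG take part. All family members are induced quickly after stress, and the human GADD45A mRNA is a textbook case of a short-lived transcript held in check by RNA-binding proteins.

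In the GFP IP, Gadd45a was 3.11-fold higher than in Input, while Gadd45b and Gadd45g were lower than in Input by a margin close to that of the median probe. In the PABP1 IP all 4 probes were higher than in Input, by 1.65-fold to 3.53-fold, a direction in which 34.5% of all tested probes passed the test. Between the IPs, Gadd45b and Gadd45g were 2.49-fold to 3.32-fold lower in the GFP IP, and Gadd45a did not pass the test.

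The arrays were Agilent arrays of 1 colour, on which 41.5% to 52.6% of 43379 probe spots lay well above background. Levels below are log2 of the processed signal over the array's own 75th percentile, so 0 is the signal of that percentile, and the values of different probes are not comparable with each other. Differences are in the same log2 unit, tested with limma over the 20610 probes that at least 1 group showed well above background on each of its arrays, with Benjamini-Hochberg adjustment over those probes and a threshold of 0.05. A ± value is the standard error of a difference or the SD of a level. Whether replicates were grown separately is not stated in the labels, and p-values cover only the spread among these samples, possibly a technical one. All 4 Gadd45 probes were well above background on all 8 arrays, and none was saturated.

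Calls were common over the whole array. The test called 63.3% of probes between the GFP IP and Input (24.2% higher, 39.1% lower), 60.4% between the PABP1 IP and Input (34.5% higher, 25.9% lower) and 70.3% between the GFP IP and the PABP1 IP (26.6% higher, 43.7% lower). The median probe differed by −0.38 between the GFP IP and Input, by 0.22 between the PABP1 IP and Input and by −0.52 between the IPs. A Gadd45 difference is therefore given both as measured and relative to that median probe. A difference compares the share of an mRNA in one RNA preparation with its share in another.

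The arrays lay on 2 slides of 4 arrays each, and each slide held all 3 groups. Deviations from the group means correlated at 0.42 to 0.74 between arrays of one slide and at −0.74 to −0.24 between arrays of different slides. Deviations within a group cancel out, and the 2 PABP1 IP arrays mirror each other exactly. The negative values therefore follow in part from the positive ones. Differences within slides are given beside the main ones. On each slide only 1 group had 2 arrays (Input on slide 1, the GFP IP on slide 2) and the others had 1, so the spread there comes from a single pair of arrays, and within-slide values are read here as differences without a call. As a check of the GFP IP, Dazl mRNA itself (A_52_P271166) was 3.81 ± 0.21 higher there than in Input (adjusted p = 2.06e-05) and 1.70 lower in the PABP1 IP than in Input (adjusted p = 0.000615); with normexp, another background correction than that of the scanner, these were 2.83 (adjusted p = 0.021) and −0.83 (adjusted p = 0.307), which ended the second call. The other Dazl probe, A_51_P246060, well above background on 3 of 8 arrays, was 2.71 ± 0.25 higher in the GFP IP than in Input (adjusted p = 0.000121), and its difference between the PABP1 IP and Input did not pass (−0.60, adjusted p = 0.104, limma). Whether these probes also read RNA of the transgene was not tested. With no control-antibody IP analysed, the rise does not show which protein the antibody brought down.

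**Figure D1:**
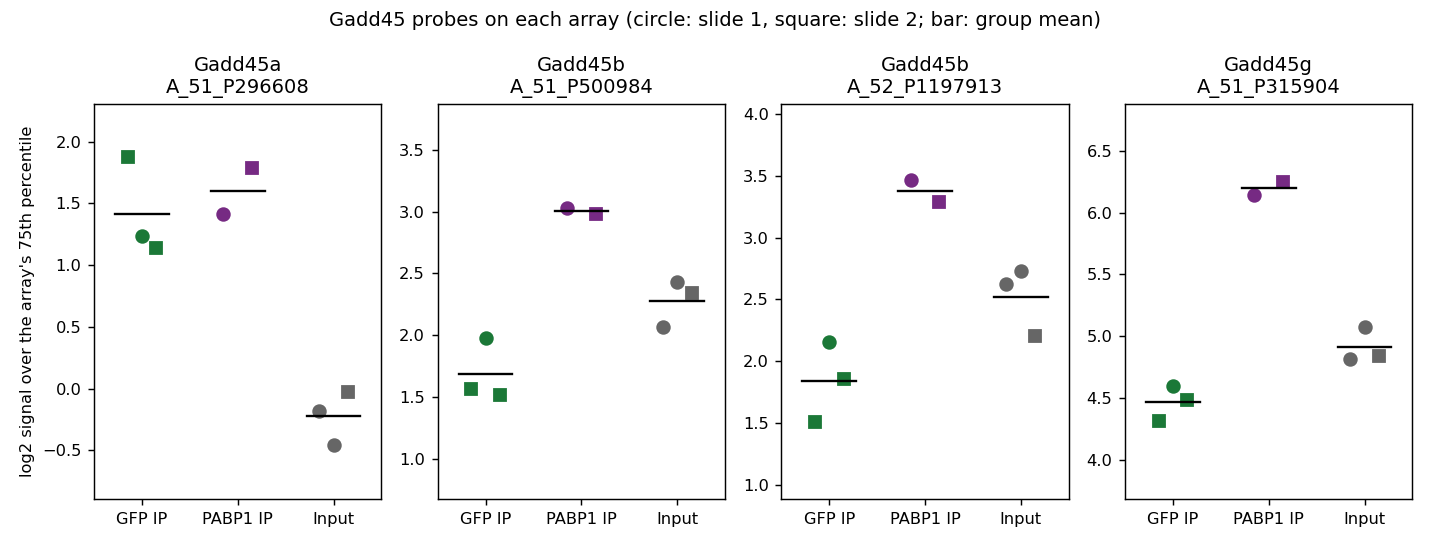
Level of each Gadd45 probe on each of the 8 arrays, scaled to that array's 75th percentile (log2), for the GFP IP (3 arrays), the PABP1 IP (2) and Input (3); circles are slide 1, squares slide 2 and bars group means, and all panels span the same log2 range. Gadd45a is high in both IPs, between 1.14 and 1.87, and near 0 in Input, while Gadd45b and Gadd45g are highest in the PABP1 IP and lowest in the GFP IP.

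Gadd45a, the member known as a target of p53 after DNA damage, lies on chromosome 6 at 67035096 to 67037407 (chr6:67035096-67037407, GRCm38.p6, RefSeq). Its probe gave processed signals of 579, 383 and 402 on the GFP IP arrays, 280 and 503 on the PABP1 IP arrays, and 56.2, 54.9 and 109 on the Input arrays. The IP arrays were all brighter than the Input arrays, with no overlap. In Input the spot was 2.41, 2.49 and 4.39 times its local background, and on the IP arrays it was 8.0 to 17.1 times its local background. Each Input array was thus nearer to background at this spot than any IP array.

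After scaling, Gadd45a stood at 1.87, 1.23 and 1.14 in the GFP IP, against −0.18, −0.46 and −0.026 in Input. Every GFP IP array lay more than 1 log2 unit above every Input array. The difference was 1.64 ± 0.23 (95% interval 1.09 to 2.19, adjusted p = 0.000774, limma), or 2.02 relative to the median probe, and 8.62% of tested probes had a larger positive difference. It was 1.55 within slide 1 and 1.53 within slide 2. Background correction with normexp gave 1.07 with an adjusted p of 0.0892, which ended the call.

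In the PABP1 IP, Gadd45a stood at 1.42 and 1.78, again above every Input array. The difference from Input was 1.82 ± 0.26 (adjusted p = 0.000766, limma), 3.53-fold, with 9.02% of tested probes above it. Between the GFP IP and the PABP1 IP the arrays overlapped, and the difference was −0.18 ± 0.26 with a 95% interval of −0.80 to 0.43 (adjusted p = 0.545, limma). That interval allows a level in the GFP IP from 0.80 below to 0.43 above that in the PABP1 IP. The sign of this difference changed with the scaling, as it was 0.28 after scaling to the array median and 0.25 after scaling to the 75th percentile of the detected probes, and without PABP1 IP replicate 2, which leaves 1 PABP1 IP array, it was 0.0014.

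Gadd45b, known from myeloid differentiation and as a target of NF-κB and TGFβ, lies on chromosome 10 (chr10:80930091-80932204, GRCm38.p6). Its probe A_51_P500984 stood at 1.57, 1.97 and 1.52 in the GFP IP, at 3.03 and 2.98 in the PABP1 IP, and at 2.06, 2.43 and 2.34 in Input. The other probe, A_52_P1197913, stood at 1.50, 2.15 and 1.85 in the GFP IP, at 3.47 and 3.29 in the PABP1 IP, and at 2.63, 2.73 and 2.21 in Input. Both probes gave the same order of groups, with the PABP1 IP highest, Input between and the GFP IP lowest, and neither showed an overlap between any pair of groups. The gap between the lowest Input array and the highest GFP IP array was small for both.

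The GFP IP differed from Input by −0.59 ± 0.17 for A_51_P500984 (adjusted p = 0.0175) and by −0.69 ± 0.21 for A_52_P1197913 (adjusted p = 0.025), both by limma. Relative to the median probe these were −0.21 and −0.31, and 57.8% and 61.3% of tested probes lay above them. These calls depended on the scaling and on single arrays. After scaling to the array median the differences were −0.059 (adjusted p = 0.81) and −0.15 (adjusted p = 0.458). Neither probe was called without Input replicate 2 (−0.52 and −0.58), without GFP IP replicate 1 (−0.53 and −0.52) or without GFP IP replicate 3 (−0.51 and −0.69), and A_52_P1197913 was not called without Input replicate 1 (−0.63). The differences were −0.27 and −0.53 within slide 1, and −0.80 and −0.53 within slide 2.

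The PABP1 IP differed from Input by 0.72 ± 0.19 (adjusted p = 0.0123) and 0.86 ± 0.24 (adjusted p = 0.0162) for the probes in the same order, by limma. Neither probe passed after scaling to the 75th percentile of the detected probes (0.47 and 0.60), with quantile normalization (0.52 and 0.61), with normexp (0.83 and 1.05) or without a filter on dim probes. Without PABP1 IP replicate 1 they were 0.70 (adjusted p = 0.0621) and 0.77 (adjusted p = 0.0875), in a fit that takes its spread from the other groups alone and assumes that the lone PABP1 IP array varies like them. Between the IPs the differences were −1.32 ± 0.19 (adjusted p = 0.000596) and −1.54 ± 0.24 (adjusted p = 0.000879), or 2.49-fold and 2.91-fold lower in the GFP IP. These last calls were kept in every alternative with a test, and A_51_P500984 was at −0.86 after scaling to the array median.

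Gadd45g, known from cytokine responses, lies on chromosome 13 (chr13:51846675-51848475, GRCm38.p6). It gave processed signals of 3150, 3940 and 4080 in the GFP IP, 7430 and 11100 in the PABP1 IP, and 1790, 2540 and 3180 in Input. On the scaled log2 values it stood at 4.32, 4.60 and 4.49 in the GFP IP, at 6.14 and 6.25 in the PABP1 IP, and at 4.81, 5.07 and 4.84 in Input. Unscaled, the GFP IP signals overlapped with the upper end of the Input signals; scaled, they lay below all of them. The PABP1 IP arrays were highest either way.

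The difference between the GFP IP and Input for Gadd45g was −0.44 ± 0.13 (adjusted p = 0.0218, limma) and −0.065 relative to the median probe, with 52.2% of tested probes above it. It lay near the middle of all probes, and its sign turned to 0.091 after scaling to the array median (adjusted p = 0.695). The call was lost without Input replicate 2 (−0.36), GFP IP replicate 1 (−0.37) or GFP IP replicate 3 (−0.45). The PABP1 IP was 1.29 ± 0.15 above Input (adjusted p = 0.000272, limma), 2.44-fold, with 19.5% of tested probes above it. With quantile normalization this was 0.72 (adjusted p = 0.00841), and with normexp it was 1.57 and not called (adjusted p = 0.0562). Between the IPs, Gadd45g was 1.73 ± 0.15 lower in the GFP IP (adjusted p = 5.36e-05, limma), 3.32-fold, and 81.8% of tested probes had a higher value. Quantile normalization gave −0.87 (adjusted p = 0.00333), still called.

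Counted by probe, 4 of 4 were called between the GFP IP and Input, 4 of 4 between the PABP1 IP and Input and 3 of 4 between the IPs, against the 63.3%, 60.4% and 70.3% of all probes given above. The arrays of the groups did not overlap for the same 4, 4 and 3 probes, against 68.3%, 71.2% and 80.3% of all tested probes. With 4 probes, such counts lie near the background of this array, and the sizes and orders above carry the description.

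**Figure D2:**
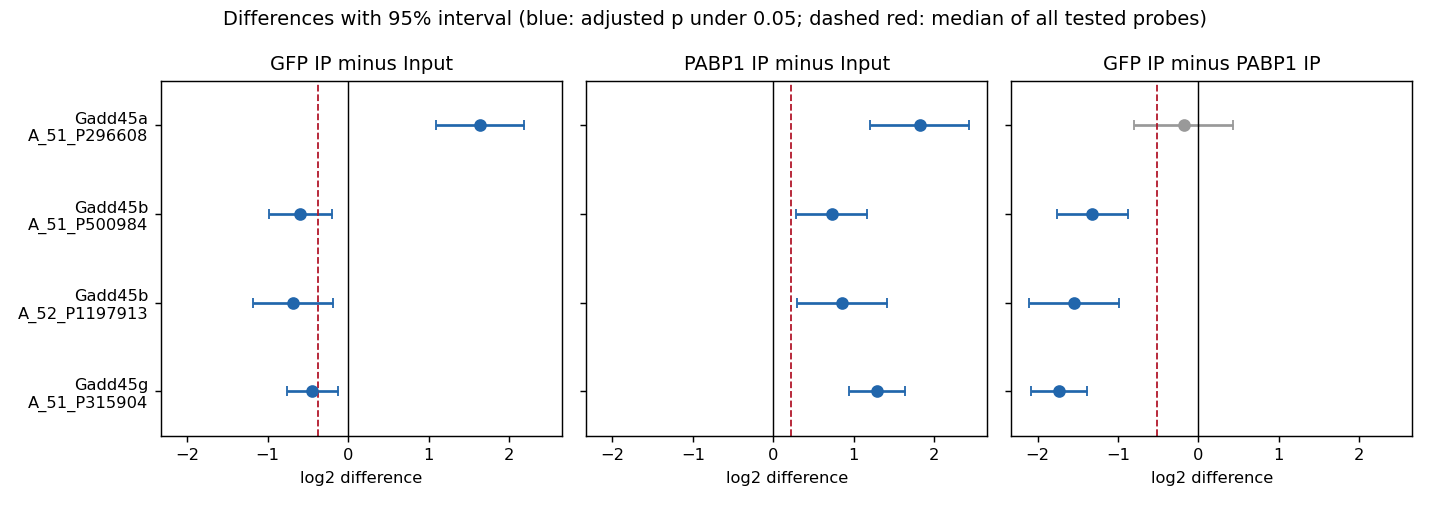
Fitted log2 difference of each Gadd45 probe in the 3 comparisons, with its 95% interval; blue points had an adjusted p under 0.05, the grey point did not, the solid line is 0 and the dashed red line is the median of all tested probes. Gadd45a lies 2.02 above the median probe in the GFP IP against Input, where the intervals of the other 3 probes include the dashed line.

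The ratio of 2 probes within an array does not depend on a scaling that multiplies all signals of an array by 1 factor, though it does depend on quantile normalization and on the background correction. Changes in such ratios were therefore compared between groups; these ratios were chosen after the values above had been seen. The ratio of Gadd45a to Gadd45g was 2.69, 1.77 and 1.79 above its Input mean on the GFP IP arrays, 0.40 and 0.67 above it on the PABP1 IP arrays, and 0.14 above, 0.40 below and 0.26 above it on the Input arrays. No GFP IP array overlapped with a PABP1 IP or Input array. The mean change between the GFP IP and Input was 2.08 (1.90 within slide 1 and 1.97 within slide 2), and between the GFP IP and the PABP1 IP it was 1.55. With quantile normalization these were 1.87 and 0.87.

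For Gadd45a against the Gadd45b probes, the mean change between the GFP IP and Input was 2.23 and 2.32. Between the GFP IP and the PABP1 IP it was 1.13 and 1.36, and between the PABP1 IP and Input it was 1.10 and 0.96. In all 9 of these comparisons of Gadd45a with another probe the arrays of the groups did not overlap. All 9 share the same Gadd45a probe and the same arrays, so they are not separate observations. Single probes alone did not overlap in 68.3% to 80.3% of cases, and the share for ratios of other probe pairs was not computed. After normexp background correction, the change of Gadd45a against Gadd45g was 1.61 between the GFP IP and Input, and −0.16 between the PABP1 IP and Input, which is the other direction from the 0.53 measured without it; quantile normalization gave 1.00 there. For Gadd45a against the Gadd45b probes, the change between the PABP1 IP and Input was 0.58 and 0.36 with normexp.

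The ratio of Gadd45b to Gadd45g changed between the GFP IP and Input by −0.15 for A_51_P500984 and −0.24 for A_52_P1197913, with overlapping arrays for both. Between the PABP1 IP and Input it changed by −0.56 and −0.43 for the same probes, without overlap. For A_51_P500984 that is about the size of the 0.53 of Gadd45a against Gadd45g in this comparison. Between the GFP IP and the PABP1 IP it changed by 0.41, without overlap, and by 0.19, with overlap, and quantile normalization turned both (−0.13 and −0.31). With normexp the first GFP IP change turned to 0.029. The Gadd45b probes shifted against each other by 0.093, −0.13 and 0.22 in the 3 comparisons, with overlapping arrays each time. Of 18 ratio changes tested by an exact permutation test (two-sided), none reached 0.05: the smallest p this design allows is 0.1, and the smallest value after Benjamini-Hochberg adjustment was 0.257.

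**Figure D3:**
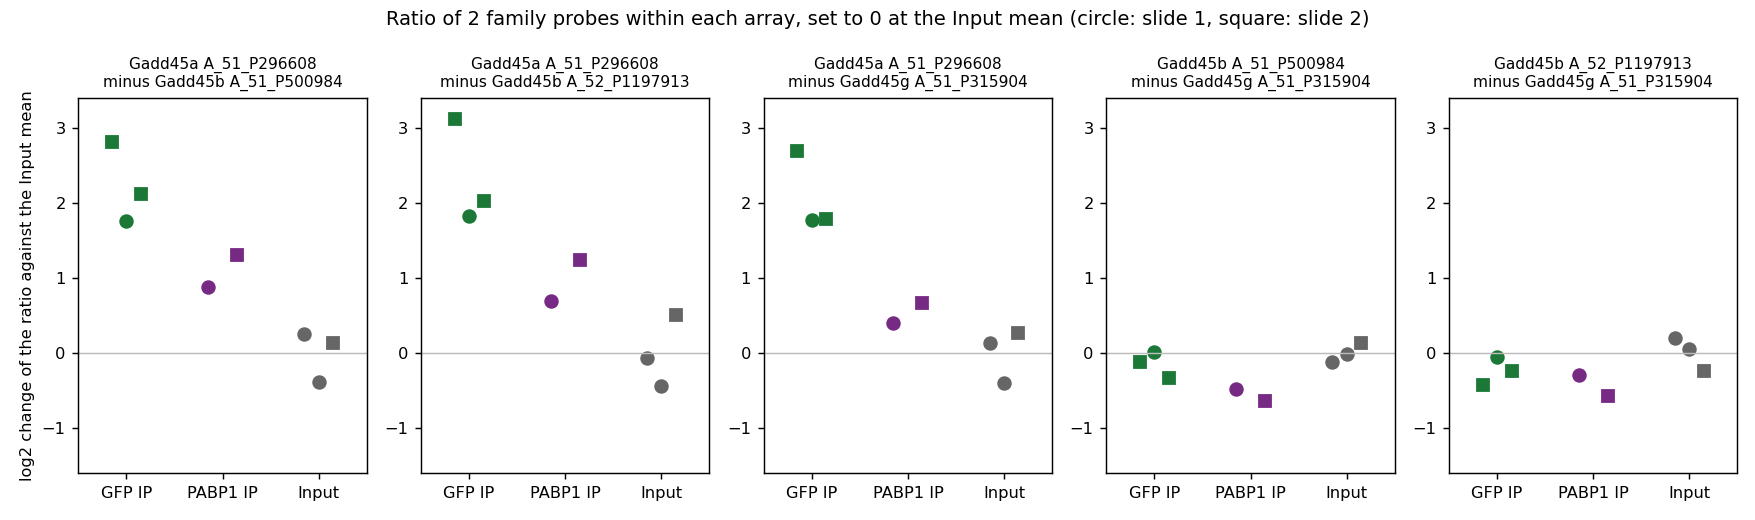
Change of the log2 ratio of 2 Gadd45 probes within each array, set to 0 at the mean of the Input arrays, for the GFP IP, the PABP1 IP and Input; circles are slide 1 and squares slide 2. The ratios of Gadd45a to each of the other probes are highest on the 3 GFP IP arrays, at 1.76 to 3.11, while the ratios of the 2 Gadd45b probes to Gadd45g lie between −0.64 and 0.20 on all arrays and are lowest in the PABP1 IP for A_51_P500984.

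Likeness of pattern was measured as the root mean square difference between probes over the 8 arrays, each centred on its own mean, among 11358 genes well above background on all arrays. Gadd45a was nearest to Nxt1, a factor of nuclear mRNA export (0.19), to 4921524J17Rik (0.19) and to Bloc1s6, a subunit of the BLOC-1 complex of lysosome-related organelles (0.19). Gadd45b, by A_52_P1197913, was nearest to the intermediate filament gene Des (0.0938), the complement regulator Cd59a (0.100) and the RNase P subunit Rpp38 (0.114). Gadd45g was nearest to the glycogenin gene Gyg (0.0654), the RNase P subunit Rpp40 (0.0905) and the transcription factor subunit Supt3 (0.0930). The closest gene to Gadd45a was thus further away than the closest to either relative. This measure takes in a probe's own spread within groups as well as its differences between groups. The residual SD was 0.31 for Gadd45a, 0.28 for Gadd45b by A_52_P1197913 and 0.13 for Gadd45g, and its part in these distances was not tested.

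The family was not one pattern on this measure. The Gadd45b probes lay 0.224 apart, and 1.4% of the genes were nearer to the first of them than its partner was. Gadd45b and Gadd45g lay 0.249 and 0.235 apart by A_51_P500984 and by A_52_P1197913, with 2.73% and 2.4% of genes nearer. Gadd45a lay 0.982 from Gadd45g, and 1.02 and 1.10 from the Gadd45b probes, with 31.9% to 44.8% of genes nearer.

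The other genes named GADD were Ddit3 and Ppp1r15a. Ddit3 (GADD153, also called CHOP), a transcription factor of the integrated stress response, stood at 1.95, 1.69 and 1.86 in the GFP IP, 3.71 and 3.80 in the PABP1 IP, and 2.52, 2.24 and 2.24 in Input. It was 0.50 lower in the GFP IP than in Input (adjusted p = 0.0142), 1.42 higher in the PABP1 IP than in Input (adjusted p = 0.000187) and 1.92 lower in the GFP IP than in the PABP1 IP (adjusted p = 3.72e-05), by limma. The first of these became 0.032 after scaling to the array median (adjusted p = 0.915) and was not called with normexp (−0.47, adjusted p = 0.41). Ppp1r15a (GADD34), which brings a phosphatase to eIF2α, differed by 0.73 ± 0.32 between the GFP IP and Input (adjusted p = 0.0816) and by 1.28 ± 0.36 between the PABP1 IP and Input (adjusted p = 0.0174, limma). The second passed and the first did not, but the first did after scaling to the array median (1.27, adjusted p = 0.0424) or to the 75th percentile of the detected probes (0.92, adjusted p = 0.0464), and the second was lost with normexp (0.91, adjusted p = 0.094). The difference between the IPs did not pass (−0.55 ± 0.36, adjusted p = 0.205, limma).

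Genes around the family were taken as 8 lists of 135 distinct genes, of which 123 were tested, each by its probe with the highest mean; a list gene is said to have risen or fallen only where it passed the limma test. Of these 123, the test called 79 between the GFP IP and Input, 78 between the PABP1 IP and Input and 82 between the IPs. Of all 14682 genes so represented, 64.3% were called between the GFP IP and Input (21.1% higher, 43.3% lower), 59.4% between the PABP1 IP and Input (34.2% higher, 25.2% lower) and 70.9% between the IPs (23.5% higher, 47.5% lower). The medians over all genes were −0.52, 0.24 and −0.68. Counts of rises and falls in the GFP IP against Input depended on the processing. After scaling to the array median they were 4 and 2 for the protein partners and 12 and 2 for the stress MAP kinases. They were 10 and 2 for the integrated stress response and 6 and 0 for the Gadd45 regulators. Repair and demethylation had 5 and 3, and AU-rich element binding 5 and 2. With normexp no list had more than 3 rises or 2 falls there. Of 106 calls among the probes of genes named by rule or singled out here, 54 were lost with normexp and 16 after scaling to the array median. Where a value named below was lost by the median scaling, that is said beside it. Calls named below and lost with normexp in the GFP IP against Input were those of Cdk1, Map3k4, Pcna, Cdkn1a, Mapk13, Fas and Asns. The others there were Atf4, Trp53, Rela, Dnmt1, Ercc5 and Ier2, beside the Gadd45gip1 and Ccnb1 probes described below. In the PABP1 IP against Input, Map3k4, Cdkn1a, Mapk13, Dusp1, Zfp36 and both Tial1 probes lost the call with normexp.

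Among the proteins that GADD45 binds, 3 of 10 genes rose and 5 fell in the GFP IP against Input, and 5 rose and 3 fell in the PABP1 IP. Cdk1, the mitotic kinase, rose by 1.33 ± 0.14 in the GFP IP and by 2.05 ± 0.15 in the PABP1 IP. Pcna rose by 0.95 and 1.45, while the kinase gene Map3k4 fell by 1.09 in the GFP IP and by 1.53 in the PABP1 IP. Cdkn1a, which encodes p21, fell by 0.47 in the GFP IP, rose by 0.60 in the PABP1 IP and was 1.07 lower in the GFP IP than in the PABP1 IP. Its difference between the GFP IP and Input turned to 0.063 after scaling to the array median (adjusted p = 0.777). Between the IPs, 1 gene of the list was higher in the GFP IP and 4 were lower.

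Probes of one partner gene could disagree. For Gadd45gip1, whose protein binds GADD45, the brighter probe A_51_P419086 was 1.75 ± 0.27 lower in the GFP IP than in Input (adjusted p = 0.00116) and the other, A_52_P85020, was 1.68 ± 0.14 higher (adjusted p = 8.64e-05, limma). Ccnb1, the gene of cyclin B1, likewise had 1 probe 0.86 lower in the GFP IP and 2 probes 1.16 and 1.58 higher, all called. The lower Ccnb1 probe was not called after scaling to the array median (−0.33), and with normexp neither the higher Gadd45gip1 probe (0.83, adjusted p = 0.0599) nor any of the 3 Ccnb1 probes was. The Gadd45b probes showed no such split, and Gadd45a and Gadd45g, with 1 probe each, have no second probe to set beside them.

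Of the stress MAP kinase genes, 8 of 20 rose and 6 fell in the GFP IP against Input, and 7 rose and 5 fell in the PABP1 IP. Dusp1, a phosphatase that switches these kinases off, rose by 2.69 ± 0.25 in the GFP IP and by 1.20 ± 0.28 in the PABP1 IP. The transcription factor gene Atf2 was 2.41 ± 0.18 higher in the GFP IP than in Input and differed by −0.29 ± 0.20 between the PABP1 IP and Input, which did not pass. Mapk13, a p38 kinase, fell by 0.84 in the GFP IP, rose by 1.21 in the PABP1 IP and was 2.05 lower in the GFP IP than in the PABP1 IP; after scaling to the array median the first of these was −0.31 and not called.

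Of the p53 and DNA damage genes, 10 of 27 rose and 10 fell in the GFP IP against Input, and 10 rose and 7 fell in the PABP1 IP. The largest rises in the GFP IP were those of Pmaip1, which encodes the cell death protein NOXA, at 2.94 ± 0.13, and of Trp53inp1 at 2.55 ± 0.13. The death receptor gene Fas fell by 1.57 ± 0.22 there. In the PABP1 IP the cell death gene Bax rose by 2.39 ± 0.16 and Ccng1 by 2.04 ± 0.16, while Mdm4, an inhibitor of p53, fell by 2.02 ± 0.26. Genes of this list therefore moved both ways in the GFP IP under the reported scaling. After scaling to the array median 10 rose and 3 fell there, and with normexp 2 rose and 0 fell. Fas was at −0.51 with normexp and was not called.

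Of the integrated stress response genes, which include Ddit3 and Ppp1r15a, 7 of 20 rose and 7 fell in the GFP IP, and 7 rose and 6 fell in the PABP1 IP. Cebpb rose by 2.45 ± 0.20 and Ppp1r15b, the relative of Ppp1r15a, by 1.72 ± 0.14 in the GFP IP, and the amino acid enzyme gene Asns fell by 1.47 ± 0.24. Xbp1 rose by 2.22 ± 0.19 and Atf4 by 2.06 ± 0.31 in the PABP1 IP.

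Transcription factors described as regulators of Gadd45 genes rose in 6 of 12 cases and fell in 3 in the GFP IP, and rose in 2 and fell in 5 in the PABP1 IP. Nfya rose by 2.35 ± 0.13 in the GFP IP, and Atf4 by 1.63 ± 0.28; Trp53 fell by 0.88 ± 0.15 and Rela by 0.73 ± 0.12. The calls for Trp53 and Rela were lost after scaling to the array median, at −0.34 and −0.20. Pou2f1 was 4.22 ± 0.19 lower in the PABP1 IP than in Input and 3.63 ± 0.19 higher in the GFP IP than in the PABP1 IP.

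Of the repair and demethylation genes linked to GADD45, 2 of 15 rose and 6 fell in the GFP IP, and 5 rose and 7 fell in the PABP1 IP. The maintenance methyltransferase gene Dnmt1 rose by 1.48 ± 0.16 in the GFP IP and was 3.23 ± 0.18 higher there than in the PABP1 IP. The nucleotide excision repair genes Ercc4 and Ercc5 fell by 2.13 ± 0.12 and 1.68 ± 0.33 in the GFP IP; the call for Ercc5 was lost after scaling to the array median (−1.15, adjusted p = 0.0573). In the PABP1 IP, Tet2 fell by 2.19 ± 0.14 and the glycosylase gene Mbd4 by 2.54 ± 0.12.

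Proteins that bind AU-rich elements include AUF1 (Hnrnpd) and TIAR (Tial1), which were described as binding human GADD45A mRNA. Of 9 genes of this kind, 4 rose and 2 fell in the GFP IP against Input, and 2 rose and 4 fell in the PABP1 IP. Elavl1 (HuR) rose by 2.88 ± 0.15 and Zfp36l1 by 2.52 ± 0.12 in the GFP IP, while Hnrnpd differed by 0.093 ± 0.13 and did not pass. Tial1, by its brighter probe, was 1.69 ± 0.17 lower in the PABP1 IP than in Input; its other probe, A_51_P201567, was 1.15 ± 0.21 higher there.

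Immediate-early genes, which share brief transcription after a stimulus with the Gadd45 genes, rose in 10 of 23 cases and fell in 2 in the GFP IP, where their median was 0.38. In the PABP1 IP 14 rose and 2 fell, and the median was 0.84. Their median lay 0.90 above that of all genes in the GFP IP and 0.60 above it in the PABP1 IP. Jund rose by 2.60 ± 0.19 and Dusp1 by 2.69 ± 0.25 in the GFP IP, where Ier2 fell by 1.02 ± 0.23 (−0.48 and not called after scaling to the array median); Zfp36 rose by 1.61 ± 0.16 in the PABP1 IP. After scaling to the array median 16 rose and 1 fell in the GFP IP, and after normexp 3 rose and 0 fell there and none was called in the PABP1 IP.

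**Figure D4:**
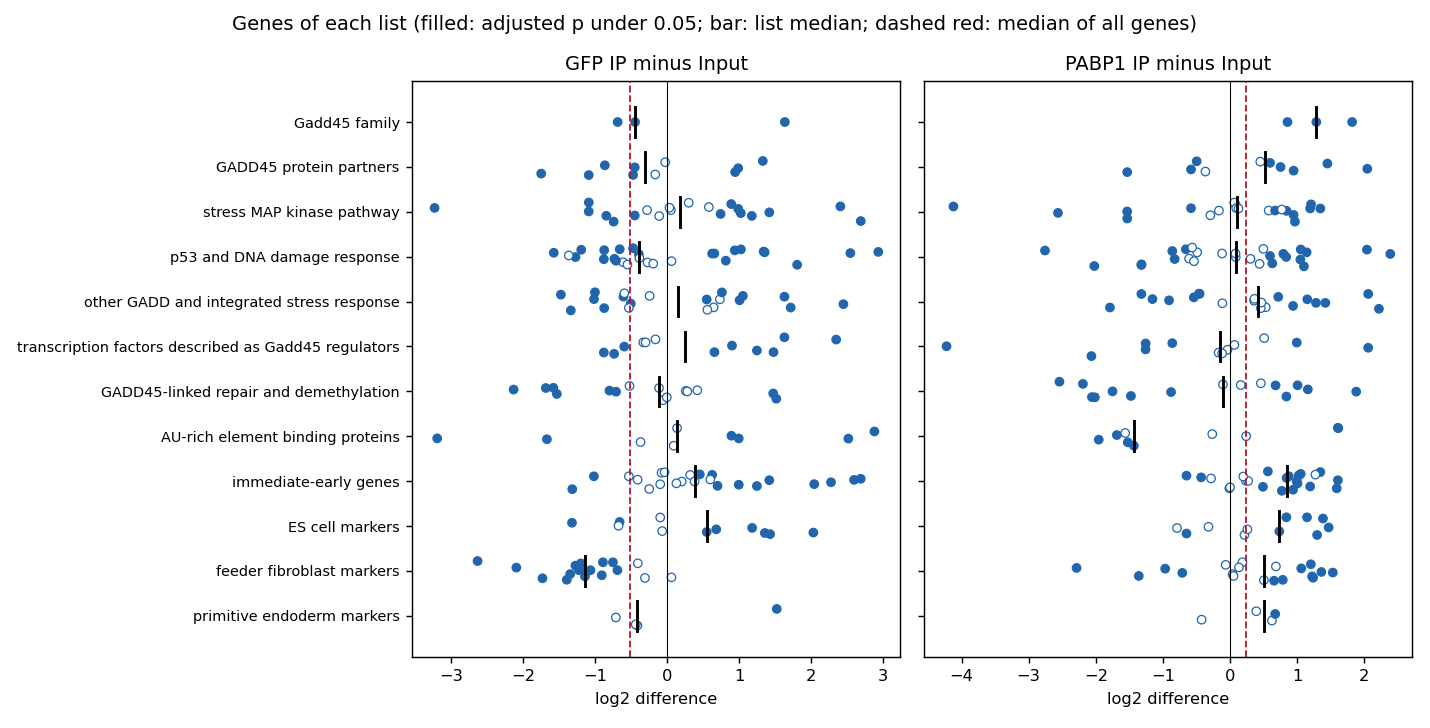
Log2 difference of each tested gene by list, for the GFP IP minus Input and the PABP1 IP minus Input; filled points had an adjusted p under 0.05, black bars are list medians and the dashed red line is the median of all genes (−0.52 and 0.24). Gadd45a (1.64) stands apart from Gadd45b and Gadd45g (−0.69 and −0.44) in the GFP IP, and all 3 lie above the dashed line in the PABP1 IP.

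Markers of the feeder fibroblasts differed between the groups. Of 19 tested, 0 were higher and 16 lower in the GFP IP than in Input, and 8 were higher and 4 lower in the PABP1 IP than in Input. Between the IPs, 2 were higher and 16 lower in the GFP IP. Of all genes, 21.1% were higher and 43.3% lower in the first comparison, and 34.2% and 25.2% in the second. In the third these shares were 23.5% and 47.5%. After scaling to the array median, 0 markers were higher and 6 lower in the GFP IP than in Input, and with normexp 0 and 2. Between the IPs these counts were 3 and 12, and with normexp 0 and 10. Their summed signal, in units of the array's 75th percentile, was 89.2 to 136 in the GFP IP, 378 to 399 in the PABP1 IP and 259 to 341 in Input; Pdgfra was not tested, and Twist1 was well above background on 1 of 3 GFP IP, 2 of 2 PABP1 IP and 0 of 3 Input arrays. The order of this sum, with the PABP1 IP highest and the GFP IP lowest, is also the order of Gadd45b and Gadd45g and not that of Gadd45a, and its part in these results was not tested. The ES cell markers, among them Pou5f1, Nanog and Sox2, were well above background on all 8 arrays for each of the 11 present. Gene by gene, 6 of 11 were higher and 2 lower in the GFP IP than in Input, with a median of 0.55. After scaling to the array median 8 were higher and 0 lower there, and with normexp 1 and 0. In the PABP1 IP 6 were higher and 1 lower than in Input. Between the IPs, 4 were higher and 4 lower in the GFP IP. Their summed signal, in which bright genes weigh most, was 1484 to 2002 in the GFP IP, 2048 to 3956 in the PABP1 IP and 2211 to 4192 in Input. Primitive endoderm markers summed to at most 0.641 on any array, and Sox17 and Sox7 were not tested. These marker differences compare shares in RNA preparations, and how each antibody recovered the RNA of a cell type was not tested. In such bulk RNA, fewer cells of a type, less RNA per cell and a different recovery by the antibody cannot be told apart.

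The authors' deposited table of group means gave log2 ratios with the same order of the family. For Gadd45a the authors' deposited table had 2.37 for the GFP IP and 1.94 for the PABP1 IP, each over Input, and 0.43 for the GFP IP over the PABP1 IP. For Gadd45g the authors' deposited table had 0.050, 1.38 and −1.33 in the same order. The 2 Gadd45b entries of the authors' deposited table are not tied to a probe there, and had −0.051 and −0.18 in the first of these ratios, 0.78 and 0.94 in the second, and −0.83 and −1.11 between the IPs. Its ratios for the GFP IP over Input lie above those computed here for all 4 entries. The sources used here do not give its scaling.

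**Figure D5:**
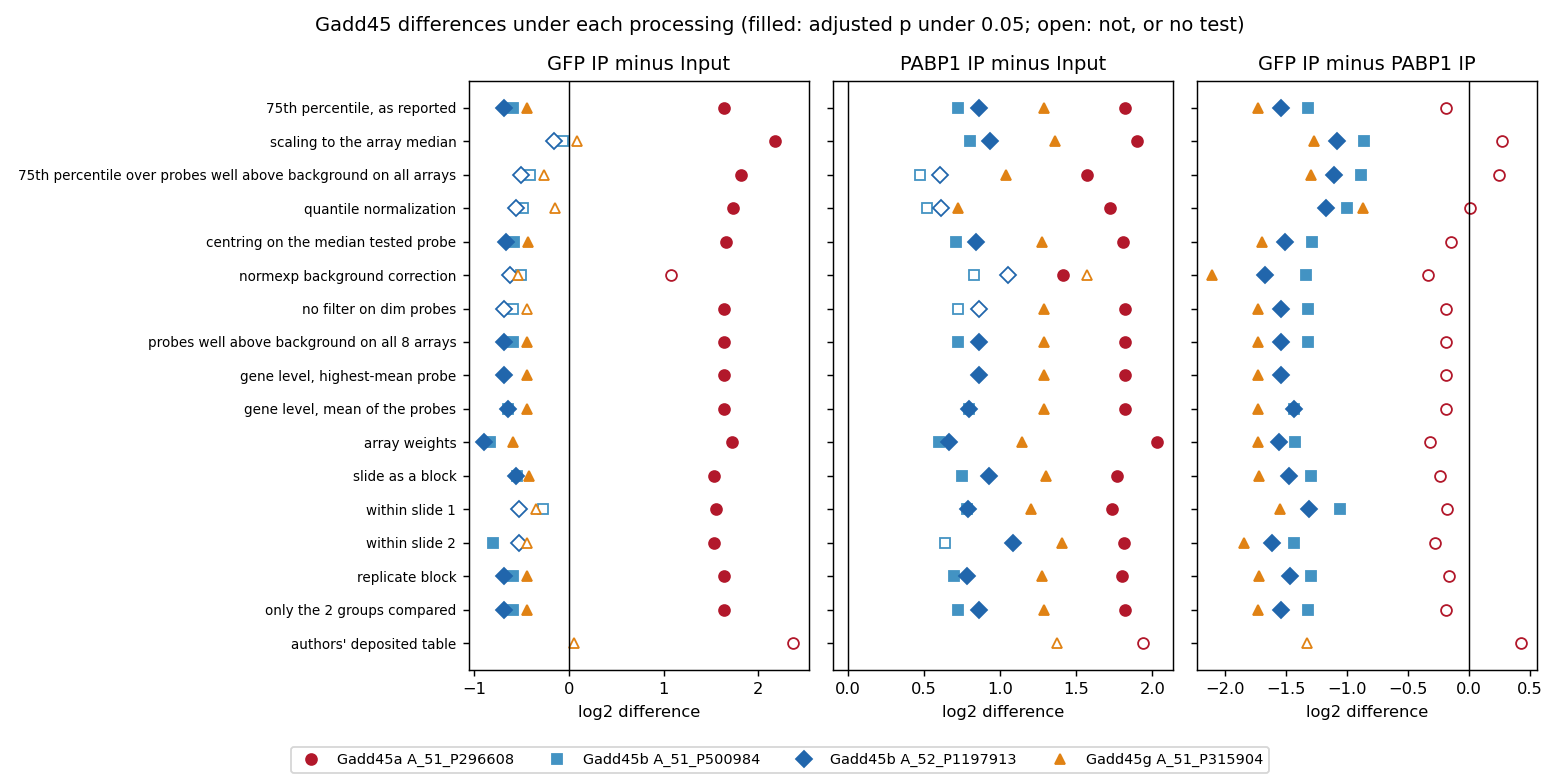
Log2 difference of each Gadd45 probe in the 3 comparisons under each processing, one processing a line, with the reported one on top; filled symbols had an adjusted p under 0.05, open ones did not or had no test. Gadd45a lies right of the other probes on each line of the GFP IP minus Input panel (1.07 to 2.37), while Gadd45b and Gadd45g lie nearer to 0 there and turn open on several lines.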

How the data were processed

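RNA from 3 GFP IPs, 2 PABP1 IPs and 3 inputs was labelled with Cy3 and measured on Agilent arrays (design 014868). The authors scanned them to intensity with Feature Extraction 9.1.3.1, per the file headers, under protocol GE1-v5_95_Feb07, which subtracted background and removed spatial trends. The deposited intensities carry 3 significant digits. The authors also deposited flags per spot, of saturation, of outliers and of signal well above background; these hold other values than brightness.

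The processed intensity was taken to log2, the 75th percentile of each array over 43379 spots was subtracted, and spots of a probe were averaged. Of 41174 probes, 30 were dropped for an outlier spot, and limma 3.58.1 under R 4.3.3 was run on 20610 (files read by the package data.table, version 1.17.8), with lmFit and eBayes on all 8 arrays together and 5 residual plus 2.17 prior degrees of freedom; each probe was its own feature. Of the tested probes, 15005 were named through RefSeq by accession, 2560 by symbol and 1273 by synonym (GRCm38.p6), and 1772 kept the array's name. On simulated arrays, 37 of 100 probes changed by 1 log2 unit and 76 of 100 changed by 2 were called for the GFP IP over Input. All other simulated probes were left unchanged, while 63.3% of probes were called in the data. The adjustment was therefore stricter in the simulation, and these shares are not the sensitivity of the reported test. The number of arrays limits the precision. Figures used matplotlib 3.10.9 in Python 3.11.15.

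The members and lists were chosen with earlier results of these data known. Named genes were the Gadd45 probes; Dazl and Pabpc1 as checks; Ddit3, Ppp1r15a and Gadd45gip1; in each list and comparison the 2 largest positive and 2 largest negative differences among called genes well above background on all arrays; and the 3 genes nearest in pattern to each member. The genes Pcna, Cdkn1a, Ccnb1 and Hnrnpd and the second probe of Tial1 were, where this rule did not name them, chosen after their values were seen. Pabpc1 differed by −0.86 ± 0.61 between the GFP IP and Input (adjusted p = 0.248, limma). Between the PABP1 IP and Input it differed by 0.22, which did not pass. That difference turned to −0.028 after scaling to the 75th percentile of the detected probes and to −0.61 with quantile normalization.

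Replicate numbers were checked for pairing. Samples of the same number had deviations from their group means correlated at −0.71 to 0.57. These were 0.51 to 0.57 for samples on the same slide and −0.71 to −0.24 for samples on different slides. The sign thus followed the slide, and negative values follow in part from centring on group means. The check therefore could not tell if the numbers pair the samples. No sequence is shown.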

Additional observations from a re-analysis of the deposited data

How the results depend on the processing

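Of 486 recomputed values, 411 kept their direction and side of the threshold (for counts, a size within 1.5 times), 43 lost their call, 7 turned sign and 25 counts or untested values moved; where no value below shows a cause, the cause was not tested. Kept under every alternative with a test were the calls of Gadd45a in the PABP1 IP against Input (1.41 to 2.03) and of Gadd45b and Gadd45g between the IPs (−0.86 to −2.11). Gadd45a against Input in the GFP IP was lost only with normexp.

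For the GFP IP against Input, 1 of the 4 Gadd45 probes was called after scaling to the array median, to the 75th percentile of detected probes, with quantile normalization and without a filter on dim probes, and 0 with normexp. In the order Gadd45b A_51_P500984, Gadd45b A_52_P1197913, Gadd45g, the uncalled differences were −0.059, −0.15 and 0.091 (array median), −0.41, −0.50 and −0.26 (detected probes) and −0.48, −0.56 and −0.14 (quantile). They were −0.51, −0.62 and −0.54 (normexp) and −0.59, −0.69 and −0.44 (no filter, where more probes are tested). Within slide 1 the differences in this order were −0.27, −0.53 and −0.35. Within slide 2, A_52_P1197913 was at −0.53 and Gadd45g at −0.44. With normexp Gadd45a was at 1.07, below the threshold.

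For the PABP1 IP against Input, 2 of the 4 probes were called with the detected probes' percentile, quantile normalization and no filter, and 1 with normexp. The uncalled Gadd45b differences, A_51_P500984 before A_52_P1197913, were 0.47 and 0.60 (detected probes), 0.52 and 0.61 (quantile), 0.83 and 1.05 (normexp, with Gadd45g at 1.57) and 0.72 and 0.86 (no filter). A_51_P500984 was at 0.78 within slide 1 and 0.64 within slide 2. Between the IPs, Gadd45a, uncalled throughout, turned to 0.28 (array median), 0.25 (detected probes) and 0.0071 (quantile).

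Within each slide 2 groups have 1 array, and without 1 PABP1 IP array that group has 1; such fits take the spread from the remaining groups. Leaving out 1 array at a time, 1 to 4 Gadd45 probes were called for the GFP IP against Input, with A_51_P500984 at −0.74 to −0.51, A_52_P1197913 at −0.84 to −0.52 and Gadd45g at −0.51 to −0.36. For the PABP1 IP against Input 2 to 4 were called, with A_51_P500984 at 0.62 to 0.80 and A_52_P1197913 at 0.70 to 0.96. Gadd45a between the IPs ran from −0.41 to 0.0014.

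In the authors' deposited table, Gadd45a was at 2.37 for the GFP IP over Input and 0.43 between the IPs, and Gadd45g at 0.050 and −1.33. With normexp, 2005, 3304 and 5463 probes and 16, 15 and 34 list genes were called in the 3 comparisons, against 13050, 12452 and 14483 probes and 79, 78 and 82 list genes as reported. The mean of a gene's probes, with fewer features tested, gave 7952 calls for the PABP1 IP against Input and 9376 between the IPs. Of the probes called between the GFP IP and Input, 38.2% were higher in the GFP IP as reported, against 64.3% after scaling to the array median, 46.1% with the detected probes' percentile and 47.4% with quantile normalization. For the PABP1 IP the share was 57.1% and 47% with the detected probes' percentile; between the IPs it was 37.8%, against 52%, 52.3% and 47.4% in the order of the 3 scalings above.

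Whether the replicate numbers pair the samples could not be told. With a replicate block, the GFP IP differed from Input by 1.64 for Gadd45a, and 12932 probes were called there; no call of a Gadd45 probe changed. With the slide as a block no such call changed either. The array weights did not converge fully.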
